A study of Drosophila melanogaster with 4 samples.

Results

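Yp2 and Yp3, which encode yolk proteins, and Cyp4d21, a cytochrome P450 gene formerly called Sxe1, were followed in 4 two-colour cDNA arrays of Drosophila melanogaster heads. They are 3 of the 2406 genes that had a value on at least 3 of the arrays, and their clones were found by current gene symbol through the Entrez identifiers of the platform annotation. The genes were selected on the log2 ratios that they showed on these same arrays, so those values are a description and carry no test. Each array compared a pair of RNA pools of the same kind, from heads of untreated, unmated Oregon-R wild type males kept on normal food (NF), aged 3 to 4 days and held in vials of 30 flies. Flies spent 12 h in the treatment vessel before freezing, except those of the Cy3 pool of replicate 1, for which the label states 6 h. No drug, mutation or transgene separated the pools, and in the study these NF-NF arrays were the control for arrays of flies fed a convulsant, which were not analysed here.

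Yolk proteins are the main protein store of the insect egg. In Drosophila they are made in the fat body and the ovarian follicle cells of adult females, secreted and taken up by the oocyte, and their transcription in the fat body is under the sex determination pathway, whose last factor, Doublesex, activates it in females and represses it in males. Fat tissue also lies inside the head capsule, around the brain, so that head RNA includes it. Cyp4d21 encodes a fatty acid omega-hydroxylase that was described as enriched in male heads and needed for efficient male mating. The yolk protein genes are thus known as female-enriched and Cyp4d21 as male-enriched, while the labels of all pools here give males. In RNA from whole heads, fewer cells of a type and less RNA per cell cannot be told apart.

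A log2 ratio above 0 stands for a higher signal in the pool labelled with Cy5 according to the sample labels. These name the same dye orientation for all 4 arrays. However, the methods of the study list some slides of each condition as dye swaps. Whether any deposited ratio was turned, and on which slides, could not be learned from the sources used. The sizes on each array and the order of genes within an array, read from either end, do not depend on this, but a direction shared by several arrays does. Means over arrays, and counts of genes by the sign of their mean, therefore hold for the orientation in the labels. Beside some of them the value is given with the signs of replicates 2 and 3, of 2 and 4 or of 3 and 4 turned, and turning the other two arrays instead gives the same size with the opposite sign. Values were deposited for 2240 to 8429 of 27648 spots per array, the fewest on replicate 4. The median over clones was 0.14, 0.00, 0.08 and -0.70 on replicates 1 to 4, so values are given both as deposited and after subtraction of the array's median, called centred below. Of 6793 genes with a named clone, 2406 had values on at least 3 arrays. Of 20 photoreceptor and neuron genes sought, 8 had a named clone. Of these, 5 had values on at least 3 arrays, among them inaD, inaC, trpl and nSyb. As ratios hold no level, how strongly the heads expressed any of these genes cannot be told.

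Yp3 was carried by a clone of its own, with values on all 4 arrays. Its log2 ratio as deposited was 1.63 on replicate 1, 0.34 on replicate 2, 1.39 on replicate 3 and 1.38 on replicate 4. Replicates 1, 3 and 4 were thus close together, and replicate 2 was far below them. After centring, the values were 1.49, 0.34, 1.31 and 2.08 in the same order, and their mean was 1.31 ± 0.72 (SD, n = 4). On a linear scale the Cy5 signal after centring was 2.81-fold, 1.27-fold, 2.48-fold and 4.23-fold the Cy3 signal, both from pools of untreated males. How much of this lies in the RNA and how much in dyes or labelling was not tested. On replicate 4 the deposited value was below that of replicate 1, and subtraction of a median of -0.70 brought it above.

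Each clone was printed as a pair of adjacent spots, which share the labelled RNA, the slide and its scan. Their distance therefore shows only the noise between spots within 1 array. The deposited values of the Yp3 spots were 1.55 and 1.71 on replicate 1, 0.27 and 0.42 on replicate 2, 1.66 and 1.13 on replicate 3, and 1.26 and 1.51 on replicate 4. The spots of replicate 3 were 0.53 apart, further than 96.6% of the spot pairs of that array. All spots of replicates 1, 3 and 4 were nevertheless above both spots of replicate 2. A second clone, which the annotation gives to both Yp3 and its neighbour Rtc1, had no value on any array, so Yp3 rests on 1 clone.

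Yp2 had values on replicates 1 to 3 and none on replicate 4. As deposited it was at 1.03, 0.30 and 0.44, and after centring at 0.89, 0.30 and 0.36, with a mean of 0.52 ± 0.32 (SD, n = 3). Only replicate 1 stood out, at 1.85-fold after centring, and replicates 2 and 3 were close together. Replicate 1 is also the array whose pools differ in time in the vessel, 12 h for Cy5 and 6 h for Cy3. On 1 such array this time cannot be told apart from other differences between pools, and its part in the values was not tested. The deposited values of the spots were 1.17 and 0.90 on replicate 1, 0.32 and 0.28 on replicate 2, and 0.45 and 0.43 on replicate 3, so both spots of replicate 1 were above all the others. Yp1, the third yolk protein gene and the direct neighbour of Yp2 on the X chromosome, had 1 clone, with no value on any array. A blank marks a spot that did not pass the authors' filters, and those filters remove faint and saturated spots alike. The yolk protein genes resemble each other in sequence, and cross-hybridization between their clones was not tested.

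Cyp4d21 was low where Yp3 was high on replicates 1 and 3, but not on replicate 4. Its log2 ratio as deposited was -0.94, -0.05, -0.83 and -0.19 on replicates 1 to 4. After centring it was at -1.08 on replicate 1 and -0.91 on replicate 3, near 0 on replicate 2 (-0.05), and at 0.51 on replicate 4, for a mean of -0.38 ± 0.75 (SD, n = 4). The gene was therefore below 0 on all 4 arrays as deposited but on 3 of 4 after centring, and the sign on replicate 4 depends on whether that array's low median is removed. Such a loss of a common sign with centring was seen for 7.65% of 2406 genes. The spots of a pair were 0.02 to 0.09 apart, the deposited values being -0.98 and -0.90 on replicate 1, -0.08 and -0.01 on replicate 2, -0.87 and -0.78 on replicate 3, and -0.18 and -0.19 on replicate 4. The gene has a second clone on the array, which had no value on any replicate.

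**Figure D1:**
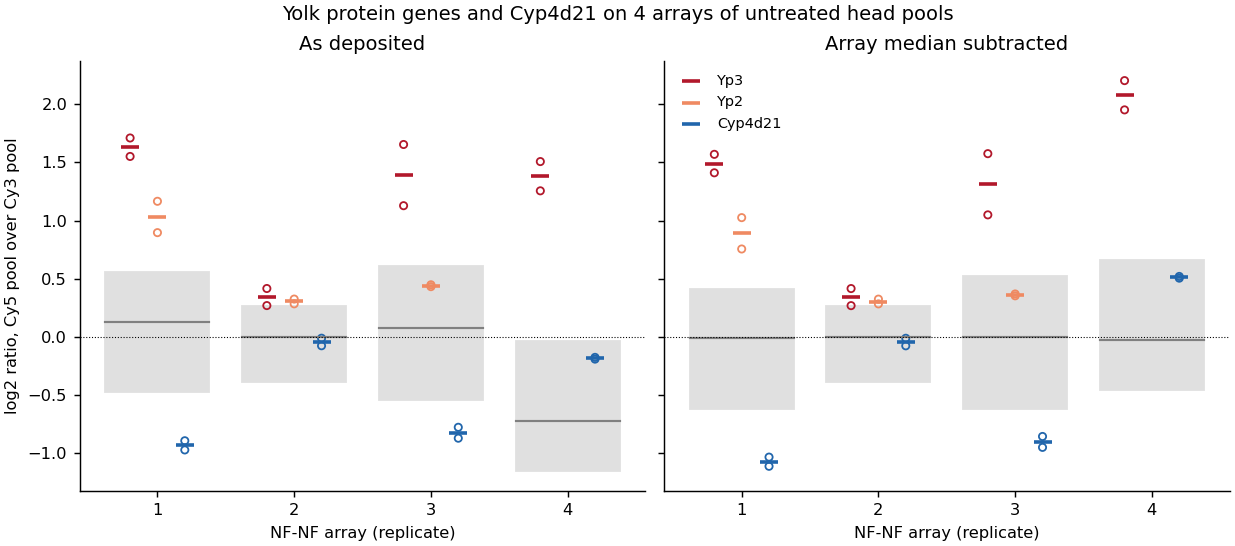
Log2 ratio of the Cy5 over the Cy3 pool (vertical axis) of Yp3, Yp2 and Cyp4d21 on NF-NF replicates 1 to 4 (horizontal axis), as deposited on the left and after subtraction of the array median on the right. Circles are the duplicate spots, coloured bars their mean, grey boxes the range from the 5th to the 95th percentile of all genes of that array and grey lines the median of those genes. Yp3 lies above the box on all 4 arrays, while Cyp4d21 lies below it on replicates 1 and 3 and in its upper part on replicate 4.

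The 3 genes were then placed among all genes of each array, which leaves out the array medians. Yp3 was the highest of 2406 genes on replicate 1 and the highest of 570 on replicate 4. It was 5th from the top of 2287 genes on replicate 3, where the seminal fluid gene CG9997 was highest at 2.43 after centring, and 64th of 2400 on replicate 2. In units of the SD over the genes of the array, its centred value was 4.49, 1.59, 3.41 and 5.74 on replicates 1 to 4. Even on replicate 2, where the value itself was small, 97.3% of genes were thus below Yp3, and replicate 2 also had the narrowest spread of genes, with an SD of 0.21 against 0.33 to 0.38 on the others.

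Yp2 was 3rd of 2406 genes on replicate 1, where Vps4, an ATPase gene of endosomal sorting, at 1.06 after centring, was the one gene between it and Yp3. It was 95th of 2400 on replicate 2 and 380th of 2287 on replicate 3, so on replicate 3 it lay inside the bulk of genes while Yp3 did not. Cyp4d21 was 13th from the bottom of 2406 genes on replicate 1 and 28th from the bottom of 2287 on replicate 3. On replicate 2 it was 945th from the bottom of 2400, and on replicate 4 it was 41st from the top of 570. In units of the SD over genes it was at -3.25, -0.21, -2.35 and 1.41 on replicates 1 to 4.

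A centred value more than 2-fold above the array median was reached by Yp3 on replicates 1, 3 and 4, where 0.0831%, 0.262% and 1.93% of genes reached it, and by neither yolk protein gene on replicate 2, where 0.25% did. Yp2 did not reach it on any array. Cyp4d21 was more than 2-fold below the array median on replicate 1, as were 0.707% of genes, and stayed just inside that limit on replicate 3, at 1.87-fold, where 0.918% of genes passed it. As the labels orient the dyes, both yolk protein genes were above the array median wherever they had a value, as were 24.1% of the 2406 genes. Of 445 genes measured on all 4 arrays, 11.2% were above it on all 4, Yp3 among them. With a pair of arrays turned Yp3 would be above the median on 2 arrays and below it on 2, while the genes on its side of the median on all 4 arrays would be the same 11.2%. These shares give the background for the values that led to the choice of the genes, and nothing further is read from them.

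**Figure D2:**
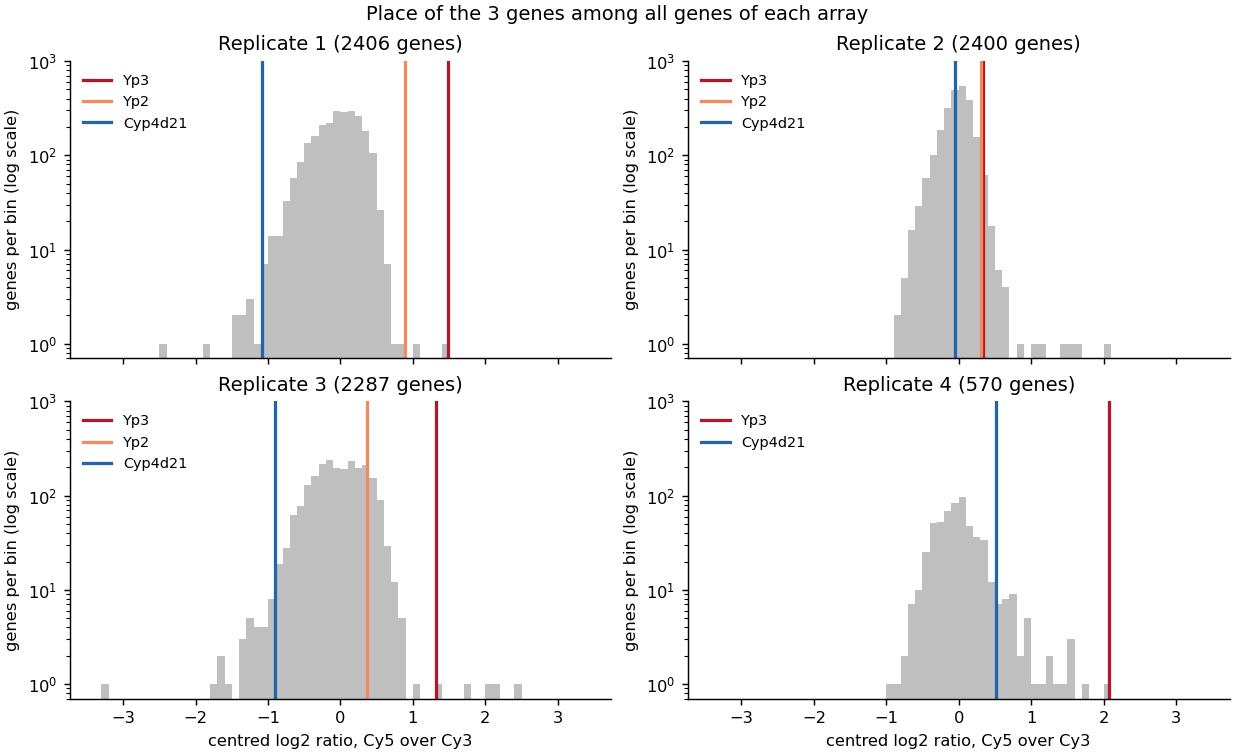
Number of genes per bin of 0.1 (vertical axis, log scale) by centred log2 ratio (horizontal axis) on each NF-NF array, with the value of Yp3, Yp2 and Cyp4d21 as coloured lines. On replicate 1 Yp3 and Yp2 lie at the upper end and Cyp4d21 at the lower end of 2406 genes, and on replicate 2 all 3 lie in or beside the bulk of 2400 genes.

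The spread of each gene over the arrays was compared with that of the other genes. The root mean square of the centred values, a size that ignores the sign and so the orientation of the dyes, was 1.45 for Yp3, 0.75 for Cyp4d21 and 0.58 for Yp2, against a median of 0.25 over 2406 genes. Yp3 was 2nd of these genes, after Scp1, which had 2.40 on 3 arrays, Cyp4d21 was 37th and Yp2 101st. Of the 445 genes measured on all 4 arrays Yp3 was 1st and Cyp4d21 13th. As the labels orient the dyes, the range over arrays was 1.74 for Yp3, 1.59 for Cyp4d21 and 0.59 for Yp2 after centring, and 1.29, 0.89 and 0.73 as deposited. The range of Cyp4d21 thus shrank most without centring, through its value on replicate 4. Duplicate spots were at most 0.53 apart for Yp3, 0.09 for Cyp4d21 and 0.27 for Yp2. This leaves out the spread between RNA pools and that from labelling, dyes and slides.

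Differences between genes on the same array are free of the array median, since it cancels. Yp3 minus Cyp4d21 was 2.57 on replicate 1, 0.39 on replicate 2, 2.22 on replicate 3 and 1.57 on replicate 4 in log2, which is 5.93-fold, 1.31-fold, 4.65-fold and 2.96-fold. The mean log2 difference was 1.69 ± 0.96 (SD, n = 4). The gap was therefore wide on 3 arrays and narrow on replicate 2. As the labels orient the dyes, Yp3 had the higher log2 ratio on all 4 arrays. With replicates 2 and 3 turned the mean difference was 0.38, with 2 and 4 turned it was 0.71 and with 3 and 4 turned it was -0.21, so its size and sign rest on the orientation. Set against the width between the 5th and the 95th percentile of genes on the same array, it was 2.48, 0.59, 1.93 and 1.40 times that width. Yp2 minus Cyp4d21 was 1.97, 0.35 and 1.27 on the 3 arrays with both genes, and averaged 1.19 ± 0.81 (SD, n = 3), or 0.12 to 0.96 with a pair of arrays turned.

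The log2 ratios of the yolk protein genes were not a fixed distance apart. Yp3 minus Yp2 was 0.60 on replicate 1, 0.04 on replicate 2 and 0.95 on replicate 3, on average 0.53 ± 0.46 (SD, n = 3), or -0.13 to 0.51 with a pair of arrays turned. On replicate 2 the log2 ratios were thus nearly equal, and on replicate 3 the Cy5 to Cy3 ratios were 1.94-fold apart. The Yp3 spots of replicate 3 were themselves 0.53 apart. Such differences say nothing of the levels of the genes. On all 3 arrays that measured both, Yp2 and Yp3 were on the same side of the array median and Cyp4d21 on the other, although Cyp4d21 was only 0.05 below it on replicate 2. Turned dyes change the sign of all 3 genes on an array together, so this opposition does not depend on them, but on replicate 2 it depends on the median that is subtracted. Relative to the median of the 49 neighbouring spots in the table, Cyp4d21 was at 0.29 there and Yp3 at 0.18, on the same side and with Cyp4d21 the higher. On replicate 4, where Yp2 had no value, Yp3 and Cyp4d21 were on the same side after centring, at 2.08 and 0.51. The genes were selected on these values, so their opposition is a description and carries no test.

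**Figure D3:**
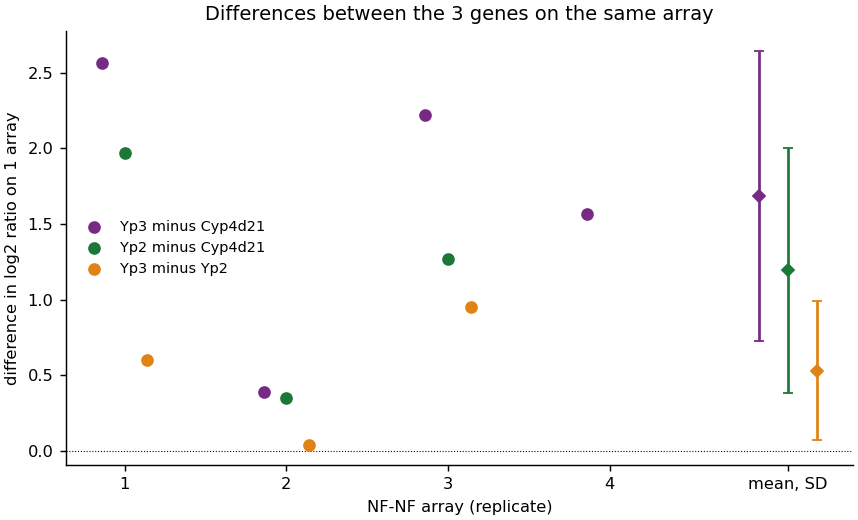
Difference in log2 ratio between 2 genes on the same array (vertical axis) for Yp3 minus Cyp4d21, Yp2 minus Cyp4d21 and Yp3 minus Yp2 on NF-NF replicates 1 to 4 (horizontal axis). Circles are arrays, and diamonds with bars are the mean and SD over the arrays that measured both genes. Each difference is smallest on replicate 2, where they lie between 0.04 and 0.39.

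Place in the table was also examined, as neighbouring rows may be neighbours on the slide, although the sources used do not state the order of the rows. The median of 49 neighbouring spots around Yp3 was 0.08, 0.16, 0.25 and -0.53 on replicates 1 to 4, and around Yp2 it was 0.15, 0.03 and -0.09 on replicates 1 to 3. Relative to its neighbours Yp3 was at 1.55, 0.18, 1.14 and 1.91, and Yp2 at 0.88, 0.28 and 0.53. The yolk protein genes thus kept nearly the whole of their size except for Yp3 on replicate 2. Cyp4d21 had neighbours that were themselves low, with medians of -0.24, -0.34, -0.25 and -0.59, and relative to them it was at -0.70, 0.29, -0.58 and 0.41. Its values on replicates 1 and 3 were thus smaller in size relative to its surroundings than to the array median, and its sign on replicate 2 turned.

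The genes with values most like those of each gene were found by the smallest root mean square difference of the centred values over the arrays on which the gene was measured. For Cyp4d21 the nearest of 444 genes was CG7222, at -0.96, -0.00, -0.89 and 0.53 on replicates 1 to 4, which differed from it by 0.06. Ank, which encodes ankyrin, mRpL37, a gene of the mitochondrial ribosome, Cyp9f2, another cytochrome P450 gene, and CG4452 followed with differences of 0.15 to 0.29. All 5 were low on replicates 1 and 3 and above the median on replicate 4, as Cyp4d21 was. Relative to their own neighbours in the table, CG7222 was at -0.88, 0.01, -1.002 and 0.21 and Cyp9f2 at -0.95, 0.07, -0.47 and 0.10, while CG4452 fell back to between -0.15 and 0.06.

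For Yp3 the nearest genes were further away. The first of 444 genes was Dlg5, with a root mean square difference of 0.88, followed by the serotonin receptor gene 5-HT7, by CanB, a regulatory subunit of calcineurin, by CHES-1-like and by CG6685, with 0.89 to 0.99. Dlg5 and 5-HT7 were high mainly on replicate 4, at 1.23 and 1.49. CanB was high on replicates 3 and 4, at 1.02 and 0.73. On replicate 1 these 5 genes lay between 0.21 and 0.40, against 1.49 for Yp3. The clones of Dlg5 and 5-HT7 are next to each other in the table, and relative to their neighbours there they were at 0.56 and 0.82 on replicate 4.

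For Yp2, compared over 3 arrays with 2280 genes, CG15425, b6, CG32081, sle and CG7248 were nearest, with differences of 0.13 to 0.19. They were at 0.62 to 0.78 on replicate 1, at 0.13 to 0.34 on replicate 2 and at 0.31 to 0.59 on replicate 3. None of them reached the 0.89 of Yp2 on replicate 1.

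**Figure D4:**
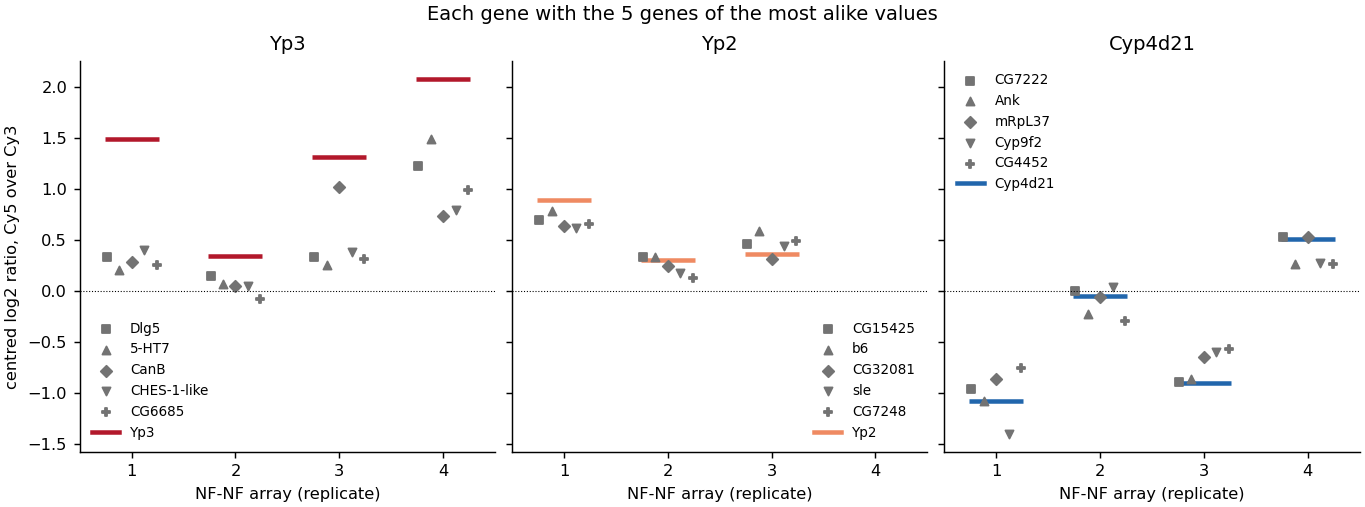
Centred log2 ratio (vertical axis) on NF-NF replicates 1 to 4 (horizontal axis) of Yp3, Yp2 and Cyp4d21 (coloured bars), each with the 5 genes of the smallest root mean square difference (grey symbols). The values around Cyp4d21 and Yp2 lie close to them, whereas Yp3 lies above its 5 nearest genes on all 4 arrays.

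Other transcripts known to differ between the sexes gave little to set beside the 3 genes. Of 6 sex-biased transcripts of the head, fit, Obp99a and Obp99b were spotted without a value on any array, and no named clone was found for to (takeout). The male-enriched lipase gene sxe2, first described together with Cyp4d21, had a value on replicate 4 alone, at -0.53 as deposited and 0.17 after centring. Of 11 genes of sex determination, 5 had a named clone, among them tra, tra2, dsx and fru, and 0 had a value on any array. Thus Cyp4d21 was the one transcript of the head list with values on at least 3 arrays.

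Of 9 genes of dosage compensation, by which males raise transcription of their X chromosome, 2 were measured, each on replicates 1 to 3. Clamp, which brings the dosage compensation complex to the X chromosome, was at -0.26, 0.00 and -0.38, and the histone kinase gene JIL-1 at -0.03, -0.03 and 0.13, both after centring. The noncoding roX RNAs had no named clone. Both genes lay within the 5th and 95th percentiles of all genes on each of these arrays.

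Genes of the fat body, the tissue that makes yolk proteins in females, did not reach the values of Yp2 and Yp3 on replicate 1. As the labels orient the dyes, 1 of 7 measured genes was above the array medians on average and 6 were below, with a median of -0.10, whereas of 2406 genes 1168 were above and 1238 below, with a median of -0.01. With replicates 2 and 3 turned 3 genes of the list were above, with 2 and 4 turned 0 and with 3 and 4 turned 4, so neither this count nor the order of the means is settled. In the labelled orientation, the highest were Lsp2, a larval serum protein gene, at 0.05 ± 0.09 (SD, n = 3), and mdy, a gene of triglyceride synthesis, at -0.03 ± 0.10 (n = 3). The lowest were bmm, which encodes the lipase of fat body lipid droplets, at -0.39 ± 0.13 (SD, n = 3), and FASN1, the fatty acid synthase gene, at -0.36 ± 0.44 (n = 3), which was at 0.16 on replicate 2 and near -0.6 on replicates 1 and 3. Where Yp3 was at 1.49 and 1.31, on replicates 1 and 3, the median of the list was -0.34 and -0.19, and on replicate 2 it was 0.12. Apoltp, a lipoprotein gene, had a value on replicate 4 alone, at -0.18 as deposited and 0.52 after centring.

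Yolk proteins are related in sequence to lipases, so lipase genes were also listed. Of 13 genes 4 were measured, of which 3 were above the array medians as labelled, with a list median of 0.17, and 1 to 2 with a pair of arrays turned. CG6277 was at 0.31 ± 0.18 (SD, n = 3), Lip1 at 0.28 ± 0.26 (n = 3), CG5162 at 0.06 ± 0.19 (n = 3) and bmm as above. The highest single value of these was 0.54, that of Lip1 on replicate 3, below the 1.31 of Yp3 on that array but above the 0.36 of Yp2, which CG6277 also exceeded, at 0.44.

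Among 27 genes of the Cyp4 family and P450 genes related to it, 8 were measured, 3 above and 5 below the array medians as labelled, with a list median of -0.06, and 2 to 4 above with a pair of arrays turned. By the labelled means Cyp4d21 was the lowest, followed by Cyp4ac1, at -0.19 ± 0.36 (SD, n = 3). With replicates 2 and 3 turned this order reversed, with Cyp4d21 at 0.10, the highest of the 8 genes, and Cyp4ac1 at -0.15. Cyp4p1 was the highest as labelled, at 0.28 ± 0.18 (n = 3), and Cyp313a1 followed with 0.13 ± 0.61 (n = 4), at -0.61, 0.67, -0.13 and 0.59 on replicates 1 to 4. Cyp313a1 was thus below the median on replicates 1 and 3 and above it on replicate 4, as Cyp4d21 was, but also above it on replicate 2. The median of the family was -0.28, 0.13 and -0.16 on replicates 1 to 3, and 0.51 over 3 genes on replicate 4.

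**Figure D5:**
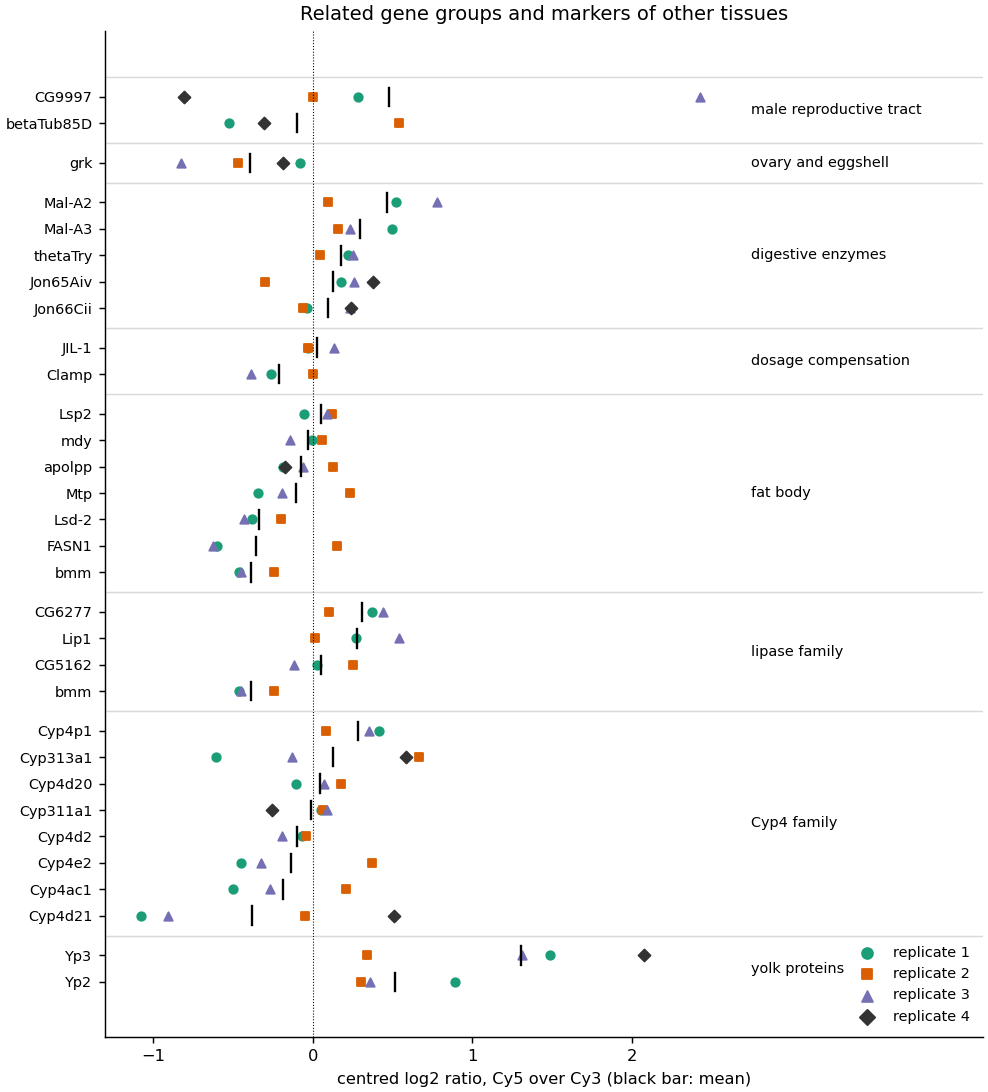
Centred log2 ratio (horizontal axis) of the measured genes of 8 lists (vertical axis), with 1 symbol per NF-NF array and a black bar for the mean over arrays. The yolk protein genes lie to the right of the genes of the fat body and lipase lists on replicate 1, where Yp2 is at 0.89 and the highest gene of those lists at 0.38, whereas on replicate 3 Yp2, at 0.36, lies below the lipase genes Lip1 and CG6277.

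Markers of tissues other than the head were read in the same way. Of 26 genes of the ovary and eggshell 1 was measured, grk, which encodes a growth factor of the oocyte, at -0.08, -0.47, -0.83 and -0.19 on replicates 1 to 4 after centring. Its values were below the array median on all 4 arrays as labelled, on the opposite side from Yp3. Of 2406 genes, 25.7% were below the median on every array that measured them. As 1961 of these had values on 3 arrays only, that share is not one for genes measured on all 4, as grk was. None (0) of the other 4 spotted genes of that list had a value on any array. Of 33 genes of the male reproductive tract 2 were measured. CG9997 was at 0.28, 0.00, 2.43 and -0.81 on replicates 1 to 4, and the testis tubulin gene betaTub85D at -0.52 on replicate 1, 0.54 on replicate 2 and -0.30 on replicate 4. CG9997 was thus high on replicate 3 alone, and betaTub85D above the median on replicate 2 alone.

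Digestive enzyme genes, which mark the gut, had means above 0 after centring for all 5 measured genes as the labels orient the dyes, with a list median of 0.18, against 48.5% of all 2406 genes. With replicates 2 and 3 turned 3 of the 5 were above 0, with 2 and 4 turned 5 and with 3 and 4 turned 2. The maltase gene Mal-A2 was at 0.53, 0.10 and 0.78 and Mal-A3 at 0.50, 0.16 and 0.23 on replicates 1 to 3, while the serine protease genes Jon65Aiv and Jon66Cii had means of 0.13 ± 0.30 and 0.10 ± 0.16 (SD, n = 4). The list median was 0.22 on replicate 1, 0.05 on replicate 2, 0.25 on replicate 3 and 0.31 over 2 genes on replicate 4. It was lowest on replicate 2, as were Yp3 and the median of the lipase list, at 0.06 there against 0.15 and 0.16 on replicates 1 and 3, and replicate 2 had the narrowest spread of all genes. Other lists went the other way. Among replicates 1 to 3, the fat body, Cyp4 family, dosage compensation and photoreceptor and neuron medians were highest on replicate 2. These were 0.12, 0.13, -0.01 and 0.18 in that order. The part of gut RNA in the values of Yp3 was not tested. Of the photoreceptor and neuron genes 3 of 5 were above the medians as labelled, with a list median of 0.03, and 2 to 5 with a pair of arrays turned. The scaffold gene inaD, at 0.24 ± 0.05 (SD, n = 3), and the synaptobrevin gene nSyb, at 0.22 ± 0.08 (n = 3), were highest, and the protein kinase C gene inaC, at -0.11 ± 0.36 (n = 4), and the channel gene trpl, at -0.00 ± 0.19 (n = 3), lowest.

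Across all genes, the test of each log2 ratio as deposited against 0 with limma called 0 of 2406 genes (0%) at an adjusted p of 0.05, with a lowest adjusted p of 0.0651 and 600 genes at an unadjusted p under 0.05. One-class Significance Analysis of Microarrays (SAM), rebuilt on the same values, listed 107 genes at a false discovery rate of 5%, 3 higher and 104 lower. These deposited values include the median of -0.70 on replicate 4. The paper's own one-class SAM of its NF-NF control detected no gene except at a very high false discovery rate. It used a larger set of genes and other permutations, and the reason for the difference was not tested. Without replicate 4, limma called 390 of 2281 genes, 221 higher and 169 lower. No gene of the lists above was therefore called by limma on all 4 arrays in either direction, and values of those genes are given without a call. The 4 arrays limit the precision.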

How the data were processed

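RNA of head pools was amplified, labelled with Cy5 or Cy3 and hybridized to cDNA slides. The authors quantified spots with GenePix Pro 6.0, applied ratio-based normalization in Acuity 4.0 and deposited log2 ratios of Cy5 over Cy3. Normalization left out spots that were dimmer than 100 units and than a multiple of the background, and the filter after it required under 3% saturated pixels, no bad or absent flag, a regression R2 of at least 0.6 and a signal-to-noise ratio of at least 3.

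From these values, adjacent spots were averaged into 13824 clones. Each array's median over the 4208 clones with values on at least 3 arrays was subtracted, and clones of 1 gene were averaged. Of 15218 annotated probes 98.4% were matched to current symbols of Release 6 through RefSeq. Named beside Yp1, Yp2, Yp3 and Cyp4d21 were all measured genes of the short sex-related lists, the 2 highest and 2 lowest of other lists (all if 4 or fewer), and the 5 genes most alike to each gene. Apart from this rule, Vps4, Scp1, sxe2, Apoltp and Cyp311a1 were named after their values were seen. The genes and lists were chosen with earlier results of these data known. Limma 3.58.1 (R 4.3.3) tested all genes against 0 with Benjamini-Hochberg adjustment, two-sided, and was tested on simulated data. The simulation kept the pattern of missing values, but every array had the same spread and no shifted median. It therefore does not show the power of the test on these arrays. For SAM, every combination of array signs served as a permutation, and the constant added to each standard error was percentile 5 of these errors. Other steps used Python 3.11.15 and pandas 2.3.3.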

Additional observations from a re-analysis of the deposited data

Results flagged for a closer look

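In 5 of 27 sets of 4 array values examined, 1 array stood far from the other 3, where chance gives about 1 in 20, or 1.35 sets. That rate is for independent sets, whereas these share arrays and include genes selected on their values. Replicate 4 was the odd array in all 5. It held 2240 spots with a value, against 7966 to 8429 on the others, and its median was -0.70, against 0.00 to 0.14. Dlg5 and 5-HT7, genes among the most alike to Yp3, were at 1.23 and 1.49 there after centring, against 0.15 to 0.33 and 0.07 to 0.26 on the other arrays. Cyp311a1, a P450 gene, was at -0.25 there, against 0.05 to 0.09. Yp3 as deposited, 1 of the 27 sets, came close to the same limit on replicate 2, with 0.34 against 1.38 to 1.63, but was not flagged.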

How the results depend on the processing

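The centred mean of Yp3 stayed within 1 SD under 9 of 12 alternatives, that of Yp2 under 10 of 11 and that of Cyp4d21 under 12 of 12. The exceptions were turned arrays, as a dye swap may require. That SD is of the same array values, so leaving out 1 array could not move a mean beyond it. For Cyp4d21 the SD exceeds the size of the mean, so 12 of 12 does not make it the steadiest gene. Its alternatives ran from -0.68 to 0.10. For Yp3 the mean was 0.48 with the signs of replicates 2 and 3 turned, 0.10 with 2 and 4, and -0.39 with 3 and 4, and for Yp2 it was 0.076 with 2 and 3 turned. For Cyp4d21 the mean changed sign to 0.10 with replicates 2 and 3 turned, within its wide SD. Values as deposited gave means of 1.19, 0.59 and -0.50 for Yp3, Yp2 and Cyp4d21, and subtraction of the median of 49 neighbouring spots gave 1.19, 0.56 and -0.14. Leaving out 1 array gave 1.05 to 1.63 for Yp3, 0.33 (without replicate 1) to 0.63 for Yp2, and -0.68 (without replicate 4) to -0.15 (without replicate 1) for Cyp4d21, where it was -0.20 without replicate 3. The count of genes called by limma was 0 after centring and with values required on 2 or on all 4 arrays. With 1 array left out it was 1 of 445 genes without replicate 1 and 0 of 451 without replicate 2. It was 2 of 564 without replicate 3 and 390 of 2281 without replicate 4, 221 higher and 169 lower. These counts are over unlike sets of genes, as values were required on all arrays that remained. SAM listed 107. Turning was also applied, after the data were seen, to differences between the genes and to the list counts, with the values given above. The cause was not tested.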
